A study of Canis lupus familiaris with 14 samples.

Results

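The costimulatory receptors CD28 and ICOS, the B7 ligands CD80 and CD86, and the inhibitory checkpoint genes PDCD1 (which encodes PD-1), CD274 (PD-L1), CTLA4, HAVCR2 (TIM-3), LAG3 and TIGIT were followed in lymph nodes of dogs. They are 10 of the 15115 genes with exactly 1 symbol in the annotation of the array, and they were picked by symbol, with earlier results of these data known. They are read by 17 of 29254 such probe sets, 3 each for PDCD1 and CD80, 2 each for CD274, CTLA4 and HAVCR2, and 1 for each of the other 5 genes. The arrays held 10 lymphoma aspirates from companion dogs of several breeds, 7 labelled B-cell lymphoma and 3 labelled T-cell lymphoma, and 4 lymph nodes (63, 2970, 3024l and 3024r) from 3 normal Beagles of a breeding colony, of which 3024l and 3024r came from the same dog. The lymphomas had arisen naturally and were sampled at 3 clinics before dosing in a trial of a PI3K inhibitor, and FS21, RB07, FS22 and FS25 came from dogs that had relapsed after chemotherapy. FS22 was the only Beagle among the lymphomas, and no lymphoma came from the colony. Breed, colony and disease therefore cannot be told apart in the comparison with normal nodes, and no controlled treatment was applied to any sample. Values are log2 MAS 5.0 signals, each array having been scaled to a trimmed mean of 500. A gene with several probe sets is given by the mean of their log2 signals, and a signal of 100, which is 6.64 on the log2 scale, was taken as the limit under which a value is dim.

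A T cell needs a signal through its antigen receptor and another through CD28, which binds CD80 and CD86 on antigen-presenting cells. CTLA4 competes with CD28 for the same ligands and restrains the T cell, and ICOS is induced on activated T cells and supports follicular helper T cells. PD-1, TIM-3, LAG-3 and TIGIT are inhibitory receptors of activated and exhausted T cells, and PD-L1 is the ligand of PD-1 on myeloid, tumour and other cells. In a normal lymph node CD86 is found on macrophages, dendritic cells and activated B cells. In the RefSeq annotation of the dog (UU_Cfam_GSD_1.0), CD28, CTLA4 and ICOS lie next to each other on chromosome 37, CD274 lies next to PDCD1LG2 on chromosome 1, and LAG3 lies next to CD4.

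By the study's methods the labels rest on immunostaining for CD3 and CD79a, which reads protein, whereas the arrays read RNA. In 3 lymphomas the array signals of CD3E and CD79A went against the label. RB07 and RB10, labelled B-cell, had log2 signals of 12.11 and 12.54 for CD3E, part of the CD3 complex of T cells, and of 8.06 and 8.11 for CD79A, a signalling subunit of the receptor of B cells. FS22, labelled T-cell, had a CD3E signal of 8.80 and a CD79A signal of 10.09. MS4A1, which encodes the B-cell antigen CD20, did not follow CD79A in each of them, with 2.89 in RB07, 10.40 in RB10 and 4.90 in FS22, against 9.88 to 11.17 in the normal nodes and 10.89 in NE45, labelled T-cell. Of the other CD3 genes in FS22, CD3D was 11.93, within the 11.53 to 12.32 of the normal nodes. CD3G was 11.17, below their 12.67 to 13.88. The study drew 2 classes of lymphoma from the expression profiles of the same RNA, E-J (FS21, NE41, NE42, RB03, RB16 and FS22) and K-N (RB07, RB10, FS25 and NE45). Of the K-N dogs, RB07, RB10 and FS25 were Boxers. The summed signal of 13 T-cell markers was 16351 to 35804 in the normal nodes, 3332 to 16037 in class E-J and 53985 to 75661 in class K-N, and that of 9 B-cell markers was 5970 to 9823, 11491 to 30513 and 243 to 2624. Normal node 3024l stood apart in its control probe sets, with a 3′ to 5′ ratio for GAPDH of 23.2, against 3.30 to 8.94 on the other arrays. Because the classes rest on the expression of these samples, class values are given as a description with no test. A gene was tested where 3 or more arrays of a comparison had a signal of 100 or above, which 9 of the 10 genes met over the 14 arrays and PDCD1 did not. Each aspirate is a mixture of cells, so fewer cells of a type and less RNA per cell cannot be told apart.

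CD28 had its lowest signals in class E-J and its highest in class K-N. On the log2 scale the normal nodes had 9.36 in 63, 9.38 in 2970, 7.45 in 3024l and 8.82 in 3024r. Class E-J ran from 2.40 in NE42 through a median of 6.52 to 7.94 in RB03. Class K-N had 11.60 in RB07, 9.98 in RB10, 11.86 in FS25 and 11.53 in NE45. All 4 K-N lymphomas were above every normal node and every E-J lymphoma, while E-J and normal nodes overlapped through RB03, which was above 3024l. The K-N mean was 11.24 ± 0.85 (SD, n = 4), against 8.96 ± 0.71 (SD, n = 3 dogs) in normal nodes, and the E-J mean differed from the normal mean by -2.96 on the log2 scale, with an SD of 1.93 (n = 6). The K-N mean was 4.87-fold the normal mean, and 4 of the 6 E-J values were dim.

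ICOS separated class E-J from both other groups. Its log2 signal in the normal nodes was 10.61 in 63, 10.50 in 2970, 9.35 in 3024l and 9.95 in 3024r. In class E-J it ran from 5.66 in RB16 through a median of 6.99 to 8.31 in RB03. The K-N lymphomas had 10.94 in RB07, 9.75 in RB10, 11.24 in FS25 and 10.76 in NE45. Every E-J lymphoma was below every normal node and every K-N lymphoma, whereas K-N and normal nodes overlapped. The class E-J mean, in which 3 of the 6 values were dim, was 9.73-fold below the normal mean, at 6.97 ± 1.12 (SD, n = 6) against 10.25 ± 0.53 (SD, n = 3 dogs), and the K-N mean was 10.67 ± 0.65 (SD, n = 4).

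CTLA4 is read by 2 probe sets that gave different pictures of single arrays. The brighter, the S2 probe set, had log2 signals of 10.82 in 63, 10.18 in 2970, 9.75 in 3024l and 10.12 in 3024r. With it, class E-J ran from 2.71 in RB16 through a median of 6.90 to 8.08 in NE41, and class K-N had 11.68 in RB07, 9.98 in RB10, 12.92 in FS25 and 10.91 in NE45. For this probe set E-J lay below every normal node and every K-N lymphoma, with a mean of 6.27 ± 1.97 (SD, n = 6) against 10.31 ± 0.46 (SD, n = 3 dogs) and 11.37 ± 1.24 (SD, n = 4). The dimmer probe set, S1, had 7.52 in 63, 7.49 in 2970 and 7.59 in 3024r, but 1.41 in 3024l. It had 3.12 in RB07 and 1.01 in RB10, and 8.43 in FS25 and 6.85 in NE45, so that it split the K-N lymphomas by their label. Over the 14 arrays the log2 signal of the dimmer minus that of the brighter probe set averaged -4.26 and ran from -8.97 to 0.31. In the mean of both probe sets no class of lymphoma was separate from the normal nodes, with 9.17, 8.83, 5.58 and 8.86 in 63, 2970, 3024l and 3024r, 2.05 to 6.93 in class E-J and 5.50 to 10.67 in class K-N.

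**Figure D1:**
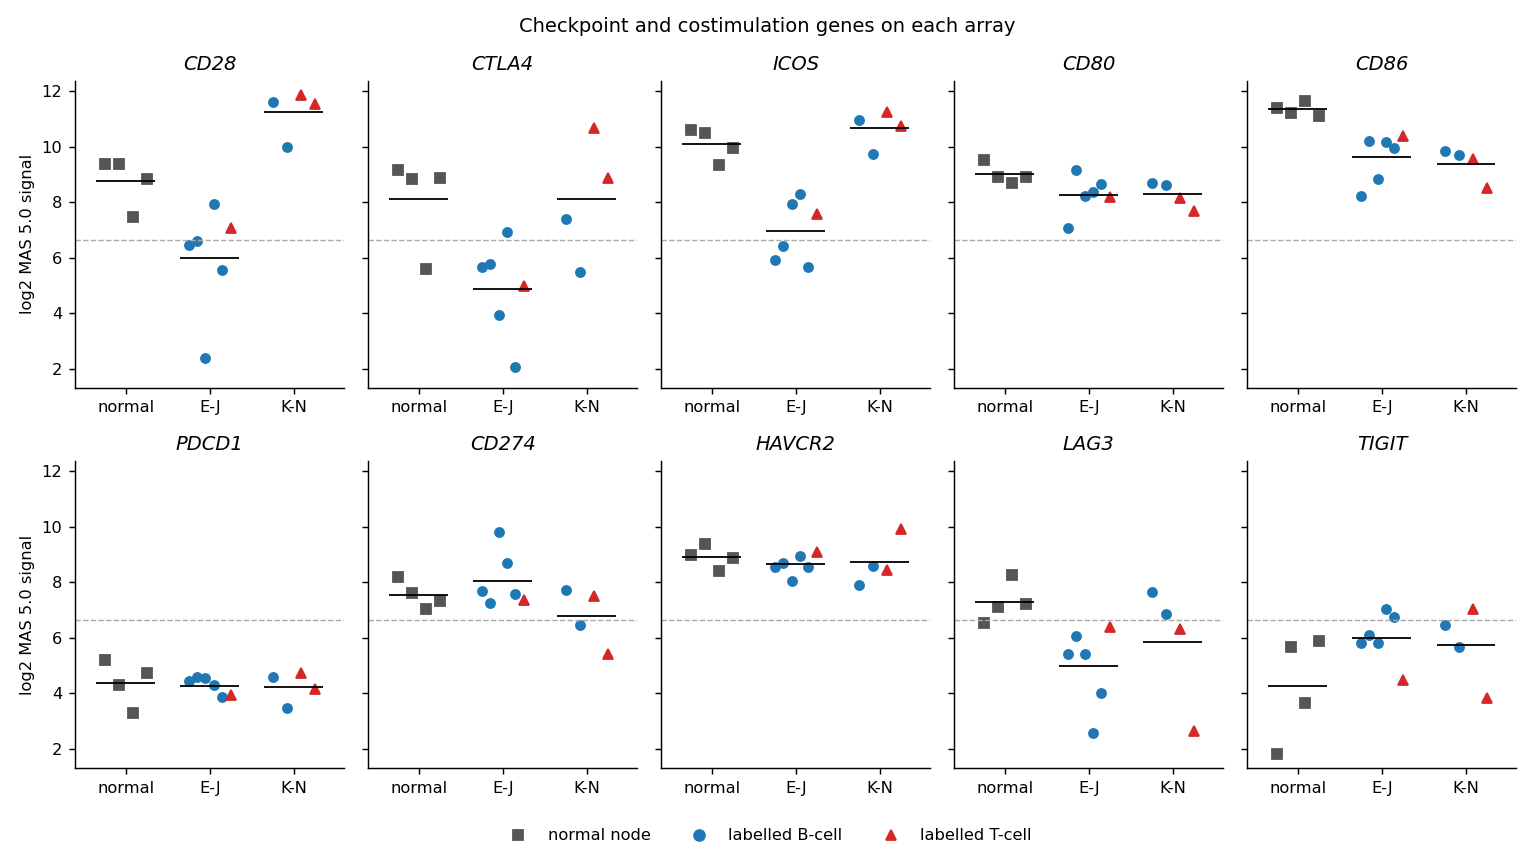
Log2 MAS 5.0 signal (vertical axis) of each gene on the 14 arrays, grouped as normal nodes, class E-J and class K-N, with 1 point per array coloured by its label, the mean of the arrays as a black line and a signal of 100 as a dashed line. CD28 in class K-N (9.98 to 11.86) lay above all other arrays, ICOS in class E-J (5.66 to 8.31) lay below them, and CD86 in all 10 lymphomas (8.22 to 10.39) lay below the normal nodes.

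CD86, a ligand of CD28 and CTLA4, was lower in all 10 lymphomas than in every normal node. It had log2 signals of 11.40 in 63, 11.20 in 2970, 11.65 in 3024l and 11.11 in 3024r. Over the 10 lymphomas it ran from 8.22 in FS21 through a median of 9.76 to 10.39 in FS22. Both classes were lower, E-J with a mean of 9.62 ± 0.88 (SD, n = 6) and K-N with 9.39 ± 0.60 (SD, n = 4) against 11.33 ± 0.11 (SD, n = 3 dogs). The 2 arrays of dog 3024 differed by less than 1 of these log2 units for CD86, but by more for CD28 and, in the mean of both probe sets, for CTLA4.

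CD80, the other ligand of CD28 and CTLA4, had a smaller difference. The mean of its 3 probe sets was 9.50 in 63, 8.89 in 2970, 8.69 in 3024l and 8.91 in 3024r. The lymphomas ran from 7.06 in FS21 through a median of 8.29 to 9.14 in NE41. FS21 had the lowest values of both CD80 and CD86 among the lymphomas, and its 3 CD80 probe sets were at 6.84, 6.92 and 7.41. Class K-N lay just below the normal nodes, with 8.67 in RB07 against 8.69 in 3024l, and class E-J overlapped them through NE41.

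PDCD1 was dim, and its 3 probe sets were not alike. Only 1 of them reached a signal of 100, on 7 arrays, 3 of them normal. It had 7.47 in 63, 7.93 in 2970, 4.89 in 3024l and 6.93 in 3024r, 3.26 to 7.41 in class E-J with a median of 6.58, and 4.31, 5.80, 6.67 and 5.55 in RB07, RB10, FS25 and NE45. The other two probe sets stayed under 100 on all 14 arrays, with highest values of 4.99 and 5.73, and correlated with the first at r = -0.26 and r = -0.49 over the 14 arrays. The mean of the 3, between 3.29 and 5.19, is therefore mostly a mean of dim values, and this mean was not tested. The first probe set, tested on its own, had a log2 difference of -1.14 in all lymphomas against normal nodes (limma adjusted p = 0.467) and of -1.61 in the study's comparison of 4 B-cell lymphomas with normal nodes (limma adjusted p = 0.276), and its K-N mean was 2.87-fold below the normal mean, with all K-N values but that of FS25 dim.

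CD274 varied more among lymphomas than among normal nodes. The mean of its 2 probe sets was 8.20 in 63, 7.61 in 2970, 7.04 in 3024l and 7.33 in 3024r. Class E-J ran from 7.26 in NE41 through a median of 7.64 to 9.81 in NE42, and class K-N had 7.73 in RB07, 6.48 in RB10, 7.52 in FS25 and 5.42 in NE45. NE42 had the highest signal of both probe sets, 9.50 and 10.12, and RB03 followed with a gene mean of 8.68. These 2 lymphomas were the only arrays above the brightest normal node, and RB10 and NE45 the only ones below the dimmest. In RB07 the probe sets were apart, at 5.93 and 9.53.

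HAVCR2 had a narrow range in the mean of its 2 probe sets, LAG3 and TIGIT a wide range at low signal. HAVCR2 was 8.99 in 63, 9.38 in 2970, 8.42 in 3024l and 8.86 in 3024r, and the lymphomas ran from 7.90 in RB07 through a median of 8.58 to 9.94 in NE45. Its 2 probe sets had r = -0.06 over the arrays and ranged over 2.78 and 3.01 log2 units, against 2.04 for their mean. NE45 was highest in only 1 of them, with 9.27. LAG3, which binds MHC class II, had 6.52 in 63, 7.12 in 2970, 8.26 in 3024l and 7.22 in 3024r, with 2.57 in RB03 to 6.38 in FS22 in class E-J and 7.64, 6.87, 6.31 and 2.65 in RB07, RB10, FS25 and NE45. All 6 E-J values of LAG3 were dim and below every normal node, but the lowest normal value, 6.52 in 63, was dim too. TIGIT reached a signal of 100 on 3 arrays, RB03 with 7.05, FS25 with 7.05 and RB16 with 6.76. Its normal values of 1.82, 5.67, 3.67 and 5.89 were all dim.

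**Figure D2:**
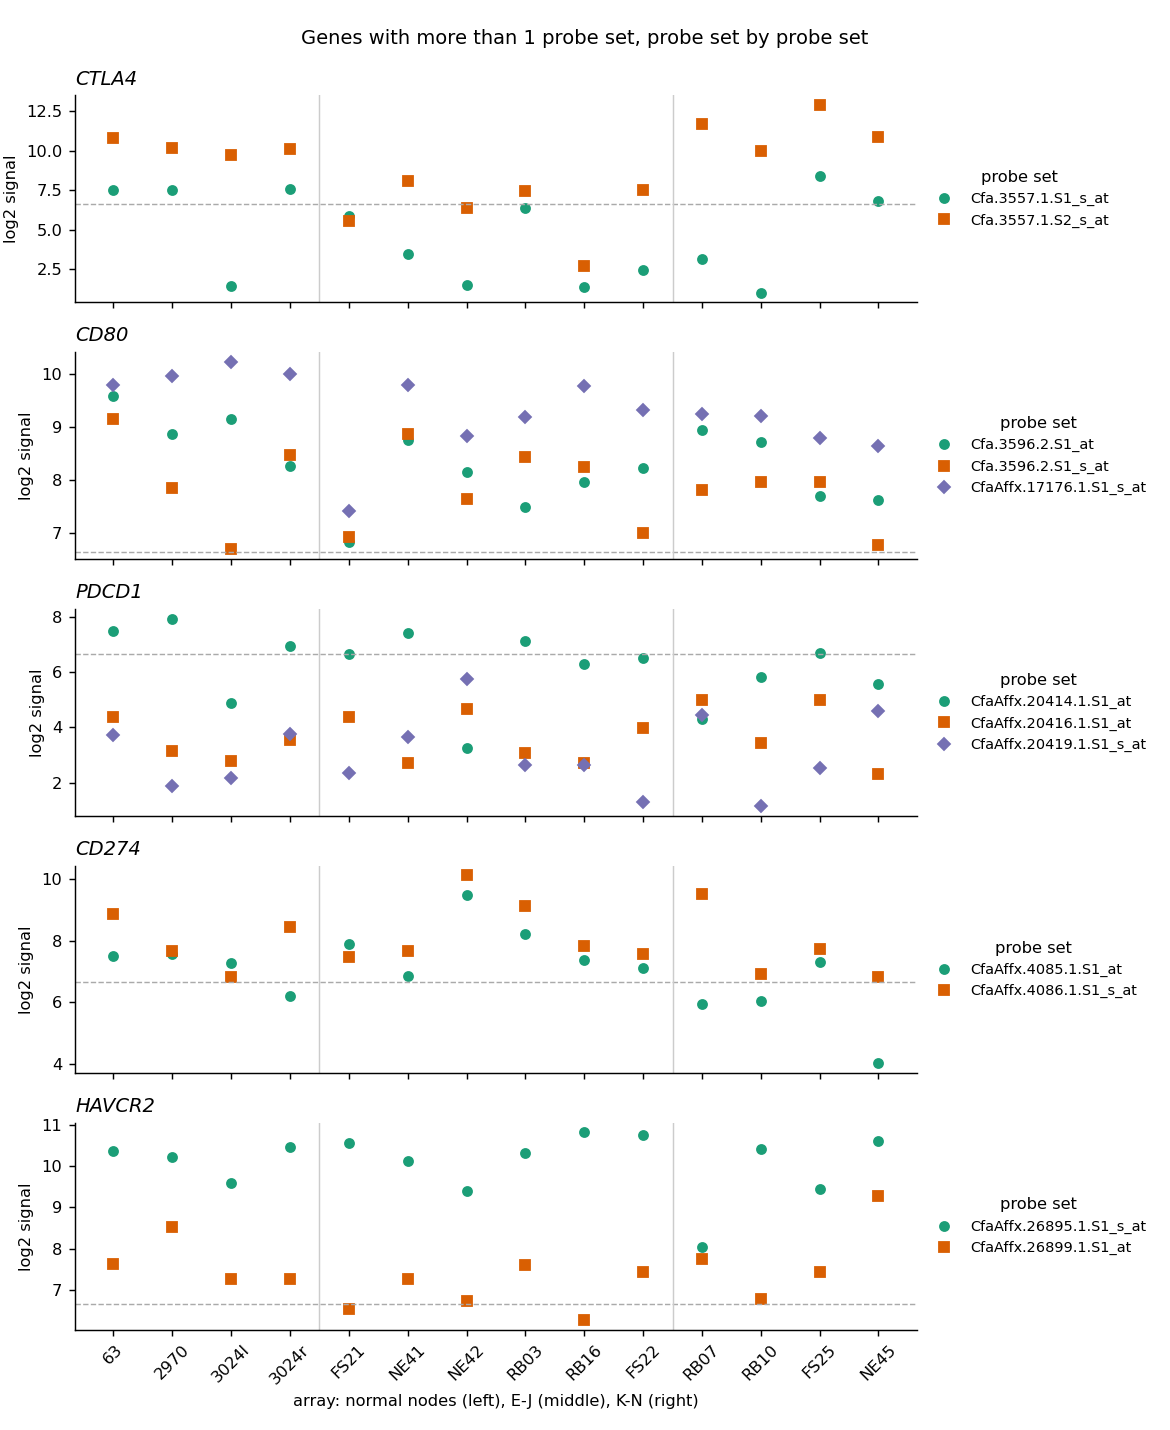
Log2 signal (vertical axis) of each probe set of CTLA4, CD80, PDCD1, CD274 and HAVCR2 on the 14 arrays (horizontal axis), with grey lines between normal nodes, class E-J and class K-N and a signal of 100 dashed. The dimmer CTLA4 probe set was at 1.41 in 3024l, 3.12 in RB07 and 1.01 in RB10, where the brighter one was at 9.75, 11.68 and 9.98.

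The order of the levels differed between the genes. For CD28 the normal mean lay between the class means. At the top of its order FS25 at 11.86, RB07 at 11.60 and NE45 at 11.53 differed by less than the SD of 0.85 among the K-N lymphomas, whereas RB10 at 9.98 stood lower by more than that SD. For ICOS the K-N lymphoma RB10 at 9.75 lay between 3024l at 9.35 and 3024r at 9.95. For CD86 the gap between the dimmest normal node, 11.11 in 3024r, and the brightest lymphoma, 10.39 in FS22, was wider than the SD of 0.11 among normal dogs and near the SD of 0.75 among lymphomas.

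The question of which of these genes differ between lymphoma and normal nodes was put to all 9400 genes that passed the signal rule, with the 10 lymphomas against the 3 normal dogs (3024l and 3024r averaged) in limma. CD86 was lower in lymphoma by 3.47-fold, and it was the only one of the 9 genes tested to pass at an adjusted p under 0.05. Its log2 difference was -1.80 (standard error 0.44, adjusted p = 0.0427 in limma). Of all genes tested, 3.63% passed, 2.6% in the lower direction, and 3.55% were, like CD86, lower without overlap. CTLA4 had a log2 difference of -2.23 (standard error 1.35), ICOS of -1.80 (1.16), LAG3 of -1.79 (0.96) and CD28 of -0.86 (1.69), with limma adjusted p-values of 0.403, 0.429, 0.339 and 0.835. The lymphoma values of CTLA4, ICOS and CD28 came from both classes. CD80 had a difference of -0.79 (standard error 0.37, limma adjusted p = 0.269), HAVCR2 of -0.32 (0.36) and CD274 of -0.11 (0.66). TIGIT, which met the signal rule through 3 lymphomas alone, had 1.82 (standard error 0.79, unadjusted p = 0.0367, limma adjusted p = 0.227), a difference between mostly dim values. With signals raised to at least 100 the differences were 0.09 for TIGIT, -0.40 for LAG3, -0.999 for CTLA4, -1.61 for ICOS and -0.30 for CD28. The median over the 9 genes was -0.86, beside -0.03 over all genes tested.

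The CD86 difference ran from -1.98 to -1.65 over all alternatives, but its adjusted p lay close to the threshold. Without RB07, RB10 and FS22, whose CD3E and CD79A went against their label, it was -1.98 (limma adjusted p = 0.0473), and with 3024r alone for its dog it was -1.71 (limma adjusted p = 0.0416). It was no longer below 0.05 without NE42, RB16, RB10, FS25, 63 or 2970, at limma adjusted p-values of 0.0597, 0.0503, 0.0563, 0.0552, 0.138 and 0.183, nor without the filter on dim genes (0.0858), with all arrays in 1 fit (0.0527), with the probe set as the unit (0.0505) or with the T-cell labels alone (0.129). Myeloid markers moved with it. Of 15 myeloid genes tested, 11 were lower in lymphoma and none higher, with a median of -2.65, and their summed signal over 16 genes was 37789 to 91785 in normal nodes and 9254 to 43570 in lymphomas. C1QB, a complement gene of macrophages, had a difference of -3.16 (limma adjusted p = 0.00102), CD209, which encodes the lectin DC-SIGN and was dim in 9 of 10 lymphomas, of -6.71 (0.00401), and FCER1G, a signalling chain of myeloid Fc receptors, of -2.38 (0.00417), whereas CD14 and CD68 had -0.68 and -0.89 and did not pass. CD209 met the signal rule only with the normal nodes, and its difference was -4.67 with the values raised to the limit of 100. The part of the myeloid markers in the CD86 result was not tested.

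**Figure D3:**
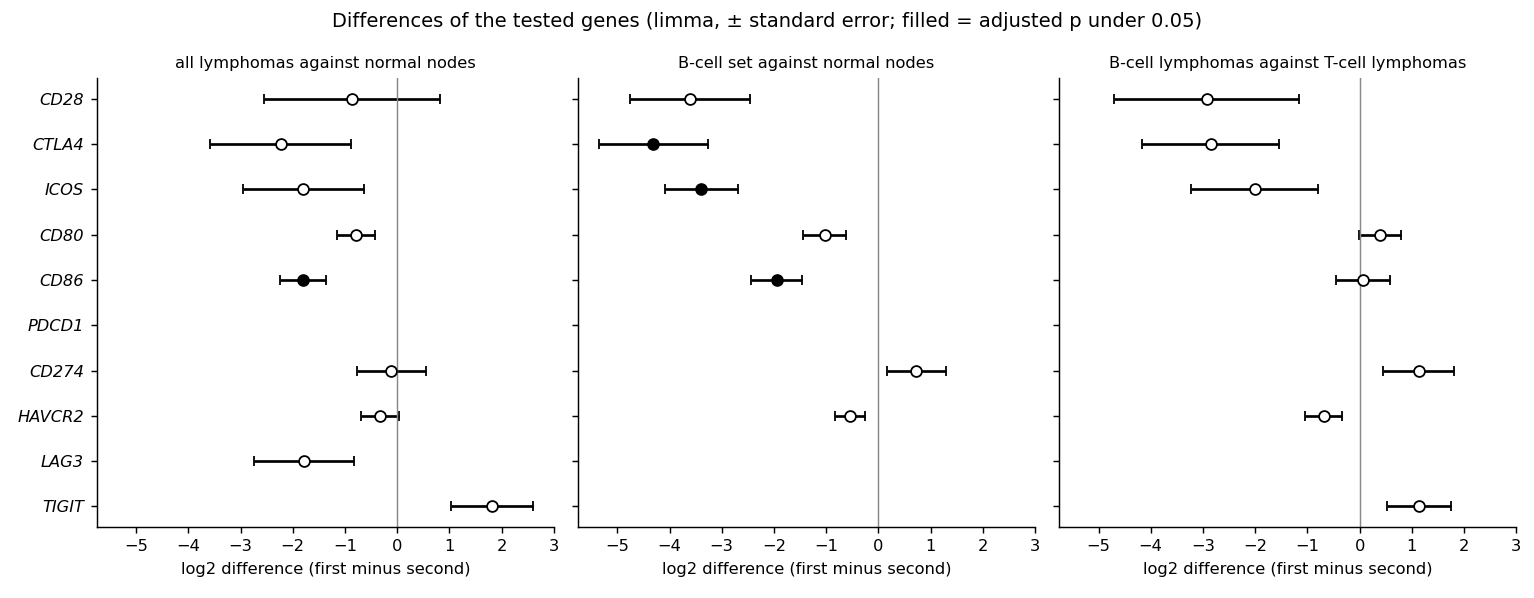
Log2 difference (horizontal axis, first group minus second) of each tested gene in 3 comparisons, with limma standard errors as bars and filled points for an adjusted p under 0.05. CD86 passed in all lymphomas against normal nodes (-1.80), and ICOS (-3.39), CTLA4 (-4.31) and CD86 (-1.95) passed in the B-cell set.

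The study's B-cell set compared RB03, RB16, FS21 and NE42 with normal nodes 63, 2970 and 3024r, and 8295 genes passed the signal rule in these 7 arrays. All 7 arrays are also in the comparison of all lymphomas, so the results share them. Lower signals of ICOS, CTLA4 and CD86 passed the test, 3 of 7 genes tested, where 10.9% of all genes passed and 7.39% passed in the lower direction. Its lymphomas had been chosen partly because their profiles lacked a signature of T cells, so for ICOS, CTLA4 and CD28 this is not independent evidence. ICOS had signals of 5.91, 7.94, 8.31 and 5.66 in FS21, NE42, RB03 and RB16, against 10.61, 10.50 and 9.95 in the 3 normal nodes, and a log2 difference of -3.39 (standard error 0.70, limma adjusted p = 0.0276). CTLA4 had 5.68, 3.92, 6.93 and 2.05 in the lymphomas, and a difference of -4.31 (standard error 1.05, limma adjusted p = 0.0420). ICOS was dim in 2 of the 4 lymphomas and CTLA4 in 3, so both met the signal rule only with the normal nodes, where they were high. With signals raised to at least 100 the CTLA4 difference was -2.21. CD86 had 8.22, 8.83, 10.15 and 9.95, and a difference of -1.95 (standard error 0.49, limma adjusted p = 0.0456).

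The remaining genes of the set did not pass. CD28 had 6.44, 2.40, 7.94 and 5.54 in the lymphomas and a difference of -3.60 (standard error 1.15, limma adjusted p = 0.0883), CD80 of -1.03 (0.41, limma adjusted p = 0.146) and HAVCR2 of -0.55 (0.28). CD28 was dim in 3 of these 4 lymphomas and met the signal rule only with the normal nodes. CD274 had a higher mean in the lymphomas by 0.73 (standard error 0.56, limma adjusted p = 0.416). In the 4 lymphomas CTLA4, CD28, ICOS, CD80 and CD86 were below all 3 normal nodes, 5 of 7 genes, where 18% of all genes were. PDCD1 (as the mean of its probe sets), LAG3 and TIGIT did not meet the signal rule in these arrays and were not tested. None of the 3 calls held without 63, without 2970 or without 3024r, with 3024l in place of 3024r, without the filter on dim genes, with all arrays in 1 fit, or by the methods' t-test. With the probe set as the unit CD86 did not pass (limma adjusted p = 0.0544), and of the CTLA4 probe sets the brighter passed (0.0344) and the dimmer did not (0.120). With all 7 lymphomas labelled B-cell in the fit the limma adjusted p was 0.254 for ICOS, 0.135 for CTLA4 and 0.0629 for CD86. Without FS21 or without NE42, ICOS alone passed, at 0.0486 and 0.0332. T-cell and myeloid markers were lower too, 8 of 13 T-cell markers (median -2.66) and 13 of 15 myeloid markers (median -2.81). B-cell markers went the other way, all 8 tested being above 0 (median 0.80), 1 of which passed. The lymphomas had been chosen partly for lacking a signature of T cells, so the T-cell markers are not independent evidence. CD5, CD6 and CD7, and the myeloid CD163 and CD209, were dim in all 4 lymphomas and met the signal rule through the 3 normal nodes alone. Among the markers were CD3E with -3.17 (limma adjusted p = 0.0252) and CD14 with -2.06 (0.0201). CD68 had -0.43 (0.673), and CD3D, the only T-cell marker above 0, had 0.09 (0.871). MS4A1 had 1.65 (0.0268) and CD79A, the least changed B-cell marker, 0.25 (0.785). The part of the markers in these results was not tested.

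B-cell lymphomas were also compared with T-cell lymphomas by label, 7 against 3. No gene of 8567 passed in limma, 0%, and 313 genes, 3.65%, had an unadjusted p under 0.05, none of the 8 tested members among them. The differences were -2.93 for CD28 (95% interval -6.86 to 1.00), -2.86 for CTLA4 (-5.75 to 0.04), -2.01 for ICOS (-4.71 to 0.69), 1.13 for CD274 (-0.39 to 2.65) and 0.07 for CD86 (-1.08 to 1.22), with limma adjusted p-values from 0.956 to 0.991. Within the B-cell label RB07 and RB10 had CD28 signals of 11.60 and 9.98, and within the T-cell label FS22 had 7.06. Without these 3 arrays, which left 5 against 2, ICOS passed with -4.15 (limma adjusted p = 0.0336), beside -5.91 for CD28 (0.0521) and -4.91 for CTLA4 (0.0795), and 267 genes passed in all. Those 3 arrays were set aside for markers of T and B cells, so this is not independent evidence. With clinic as a block none passed, and the difference was -3.54 for ICOS and -5.02 for CD28.

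Read by class instead of by label, 3 of 9 members were lower in E-J than in normal nodes without overlap (ICOS, CD86 and LAG3), where 7.97% of 9400 genes were. For LAG3 the groups were apart only between dim values, 6.38 in FS22 and 6.52 in 63, which have no order at the limit of 100. In class K-N, CD80 and CD86 were lower without overlap, where 9.12% of genes were, and CD28 was higher, where 6.93% were. For CD80 this rested on 8.67 in RB07 against 8.69 in 3024l, and it did not hold for each of its probe sets. Between the classes CD28 and ICOS were higher in K-N without overlap, where 4.45% of genes were. The class means of CD28 differed by 5.24, those of ICOS by 3.70 and those of CTLA4 by 3.23 on the log2 scale, K-N minus E-J. The CTLA4 value was 5.10 with the brighter and 1.35 with the dimmer probe set. The class means of CD80 and CD86 differed by 0.01 and -0.23. HAVCR2 had 0.07, the mean of probe sets that went opposite ways, with -0.71 and 0.84. The T-cell markers had a median difference of -2.14 in E-J and 0.95 in K-N against normal nodes, and the myeloid markers of -2.55 and -2.41. Their part in these class values was not tested.

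**Figure D4:**
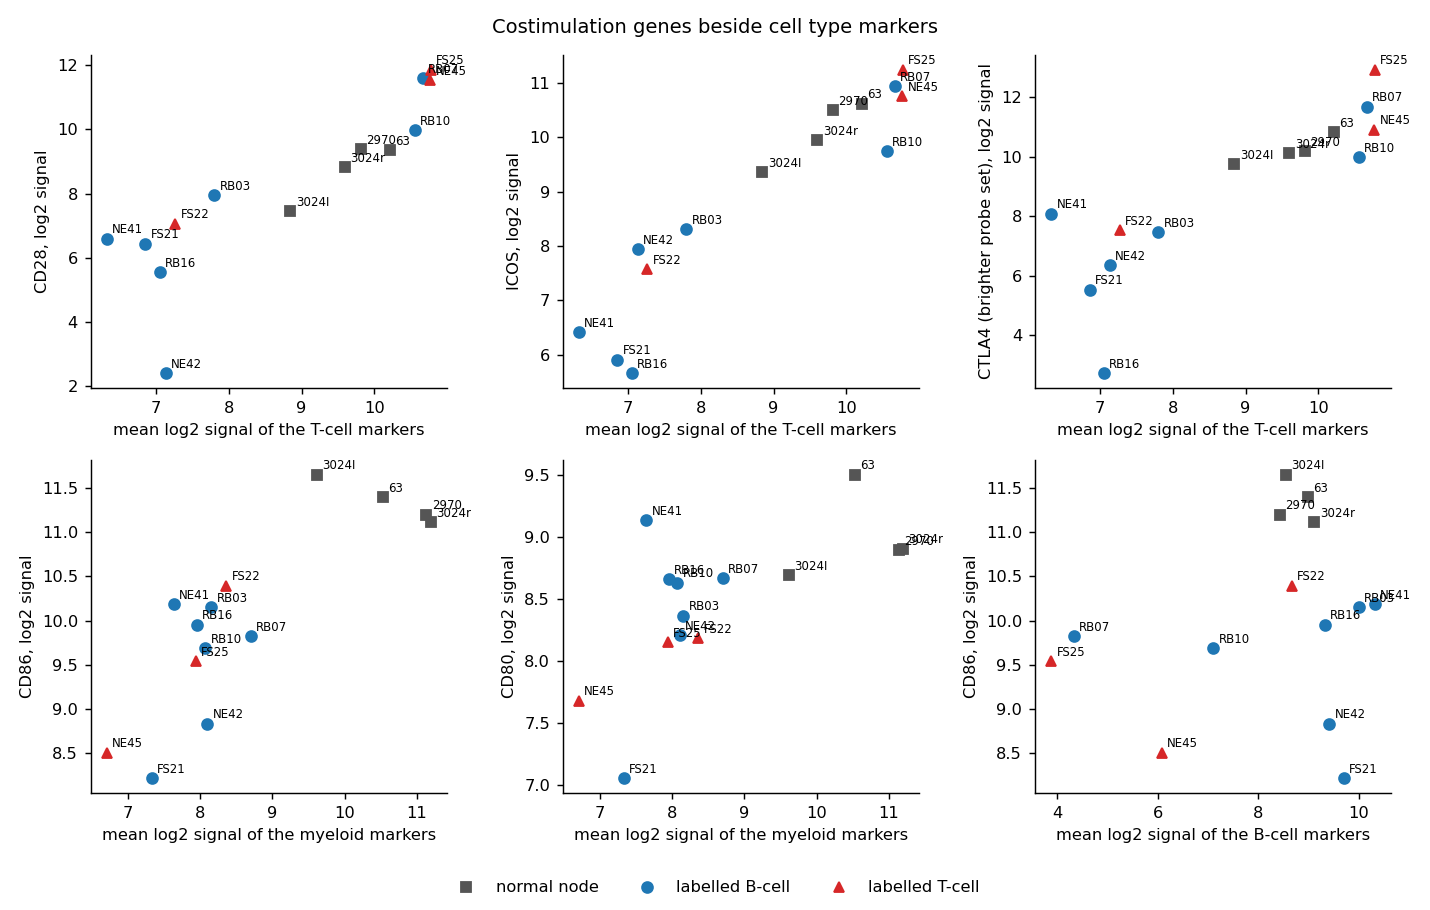
Log2 signal of CD28, ICOS and the brighter CTLA4 probe set against the mean log2 signal of 13 T-cell markers, of CD86 and CD80 against that of 16 myeloid markers, and of CD86 against that of 9 B-cell markers, with 1 point per array coloured by label. RB07 and RB10, labelled B-cell, lay with FS25 and NE45 at a T-cell marker mean above 10.5, and FS22, labelled T-cell, at 7.27.

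The genes whose log2 signal most resembled each member over the 13 dogs were taken from the 9400 genes. For ICOS they were LOC607937 (r = 0.98), RGS10 (0.96) and CD3E (0.96), and for CD28 they were PDP1 (0.96), DNAJA4 (0.96) and TOX (0.96), TOX being a regulator of T-cell exhaustion. For CTLA4 they were ATP2B4 (r = 0.93), DOCK1 (0.92) and TXK (0.91), the last a kinase of T cells. CD86 was most like CALML6 (r = 0.92), LAPTM4A (0.91) and BAG3 (0.90), and CD80 like ARHGEF15 (0.91), LAMA3 (0.89) and ADGRL3 (0.88). For CD274 the nearest was RPL5 (r = 0.86), ahead of UFC1 and EIF3F (both 0.83), for HAVCR2 SLK (0.86), ahead of SNX4 (0.86) and PDZD8 (0.85), for LAG3 RERGL (0.89), ahead of SLC4A2 and LOC611847 (both 0.88), and for TIGIT KLHDC8B (0.88), ahead of KIF26A (0.83) and HEMGN (0.79). LAG3 reached a signal of 100 on 5 of the 14 arrays and TIGIT on 3, so their r values rest mostly on dim signals. Over the 10 lymphomas alone the 3 values for TIGIT were 0.73, 0.51 and 0.81. Among the members, CTLA4 and ICOS had r = 0.82, CD28 and ICOS 0.79, CD28 and CTLA4 0.78, and CD80 and CD86 0.83. The dogs fall into the normal nodes and the classes, so that these values describe the groups as much as the single dogs.

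The ligands and relatives of these genes included few that passed. Of 9 other B7 and CD28 family genes on the array, 4 were tested in all lymphomas against normal nodes and VSIG4, a B7-related receptor of macrophages, was lower. VSIG4 had 6.82, 9.23, 5.43 and 8.70 in 63, 2970, 3024l and 3024r and 2.18 to 5.79 in the lymphomas, all of them dim, so that it met the signal rule through 3 normal nodes alone. Against the limit of 100 it was at least 2.40-fold lower in the lymphomas (limma adjusted p = 0.0284 on the values as measured). PDCD1LG2, the other ligand of PD-1, had 7.62, 8.65, 7.15 and 8.48 in the normal nodes and a difference of -1.38 (limma adjusted p = 0.200), and it was lower in the B-cell set with -1.53 (0.0348). TNFRSF14, the ligand of BTLA, had -0.49 (0.585), and ICOSLG, the ligand of ICOS, was not tested, with 7.16 in RB03 and 7.07 in FS21 as its only values above 100.

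A list of partners of HAVCR2, LAG3 and TIGIT, which also held other inhibitory ligand and receptor pairs such as CD200 and CD47, had 13 genes tested, of which CLEC4G and CD200 were lower in lymphoma. CLEC4G, a lectin that binds LAG-3, had a difference of -4.38 (limma adjusted p = 0.0475). CD200, which binds CD200R1 and none of the 3 named receptors, had one of -2.88 (limma adjusted p = 0.0389). Both were dim in 9 of 10 lymphomas, all but RB03, so that they met the signal rule only with the normal nodes. With the values raised to the limit of 100 the differences were -2.46 and -1.29. FGL1, another ligand of LAG-3, had -2.92 (0.0593). CD226, the activating counterpart of TIGIT, had 11.11, 10.43, 10.49 and 9.45 in the K-N lymphomas and 3.11 to 7.59 in E-J, with -1.56 over all lymphomas (limma adjusted p = 0.591). LGALS9, a ligand of TIM-3, had 0.54 (0.622). The ligands of TIGIT, PVR and NECTIN2, were not tested, with all NECTIN2 values under 100 and 7.24 in NE41 as the only PVR value above it.

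Regulators of T-cell exhaustion and markers of helper subsets were mostly not called. PRDM1, which encodes the repressor BLIMP-1 of plasma cells and exhausted T cells, was the only one of 9 exhaustion regulators to pass, with 10.15, 11.35, 10.64 and 12.00 in 63, 2970, 3024l and 3024r, 6.21 to 8.36 in the lymphomas, and a difference of -3.53 (limma adjusted p = 0.0038). EOMES, a factor of cytotoxic T cells, had -2.65 (0.149) and ENTPD1, an ectonucleotidase, -1.45 (0.433). With the values raised to the limit of 100 these 2 differences were -0.91 and -0.70. In the B-cell set 4 of 8 such regulators were lower, PRDM1, TCF7, IKZF2 and EOMES, where 7.39% of all genes passed in that direction. The last 3 were dim in all 4 lymphomas, so that they met the signal rule through the 3 normal nodes alone. With the values raised to the limit of 100 their differences were -1.29, -0.40 and -1.09. These lymphomas had been chosen partly for lacking a signature of T cells, so for genes of T cells this is not independent evidence. Of 11 regulatory and follicular helper T-cell genes CD200 alone passed, beside IKZF4 with -1.63 (limma adjusted p = 0.257) and FOXP3, the factor of regulatory T cells, with -2.38 (0.263). FOXP3 was dim in 8 of 10 lymphomas. With the values raised to the limit of 100 the differences were -0.75 for IKZF4 and -0.68 for FOXP3.

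Several lists had no gene that passed in all lymphomas against normal nodes, where 3.63% of all 9400 genes did. They were the 9 costimulatory genes of the TNF family, 11 signalling genes below CD28 and PD-1 and 7 genes of the interferon-gamma axis. The same held for 13 T-cell markers, 8 B-cell markers and 8 cytotoxic and NK-cell markers. An unadjusted limma p under 0.05, a looser limit, was met by 1754 of the 9400 genes, or 18.7%. The costimulatory genes of smallest p were TNFRSF9, a receptor of activated T cells, with -2.42 (limma adjusted p = 0.0933), TNFSF18 with -2.53 (0.211) and CD27 with -1.72 (0.288). PIK3CD, a catalytic subunit of PI3K, had -0.97 (0.421), PRKCQ, a kinase below CD28, -1.88 (0.471), and GRB2, an adaptor, -0.37 (0.577). CXCL10, an interferon-induced chemokine, had -2.74 (limma adjusted p = 0.187), IFNGR1 -0.55 (0.373) and IFNG -1.36 (0.573). CD8A had -1.61 (0.185), CD5 -3.25 (0.370), CD6 -1.22 (0.474), POU2AF1 -1.51 (0.516), CD22 -1.53 (0.721) and CD79A -1.10 (0.734). NKG7, KLRD1 and EOMES of the cytotoxic list had -2.38, -3.19 and -2.65, with limma adjusted p-values of 0.122, 0.134 and 0.149. Several of these list genes were dim in most lymphomas. With the values raised to the limit of 100 the differences were -0.05 for TNFSF18, 0.19 for IFNG, -0.36 for CD8A and -0.90 for CD5. They were -1.58 for TNFRSF9, -1.64 for NKG7, -1.75 for KLRD1 and -0.91 for EOMES. By class, the signalling genes below CD28 and PD-1 had medians near 0 (-0.26 in E-J and 0.08 in K-N), and the exhaustion regulators had -2.47 and 0.69.

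**Figure D5:**
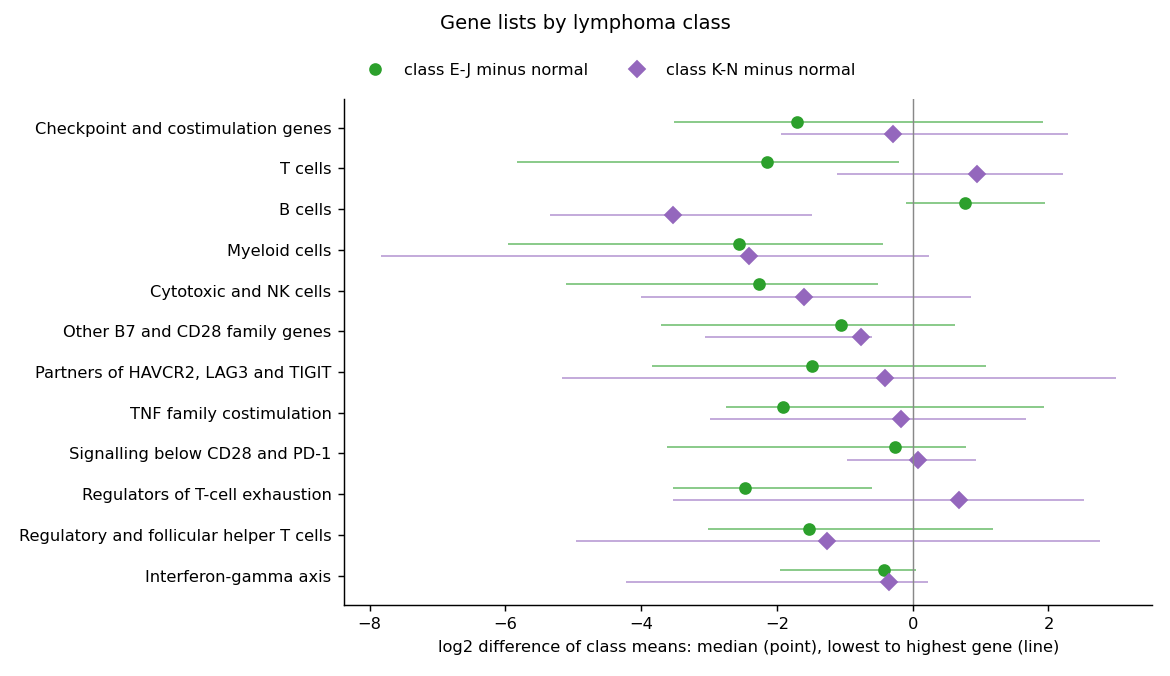
Median log2 difference of class means from normal nodes (horizontal axis, points) for each gene list, with a line from the lowest to the highest gene, for class E-J and class K-N. The T-cell markers were at -2.14 and 0.95, the B-cell markers at 0.77 and -3.53, and the myeloid markers at -2.55 and -2.41.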

How the data were processed

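RNA from lymph node aspirates was amplified (WT-Ovation Pico) and hybridised to 14 GeneChip Canine Genome V2.0 Arrays. The authors summarised each probe set to an intensity with MAS 5.0, scaled to a trimmed mean of 500, and deposited these linear signal intensity values. Of 43035 probe sets, the 29254 with exactly 1 symbol in the platform annotation of 2016 were joined into 15115 genes by the mean of their log2 signals. Detection calls and batch of the arrays were not given in the sources used here, and precision is limited by how many arrays there are.

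The tests were limma's (version 3.58.1, lmFit and eBayes, in R 4.3.3), run on every gene that reached 100 on 3 or more arrays of its comparison. P-values were adjusted by Benjamini-Hochberg over all of these genes, and 0.05 was the threshold. The script was tested on simulated data. The members, lists and tests were chosen with earlier results of these data known. Named were all members with each probe set, the 3 genes of smallest p of each other list in all lymphomas against normal nodes, direct ligands, CD3E, CD79A, CD14 and CD68, and the 3 genes most like each member. Genes called in the B-cell set outside this rule were named after their values were seen. Alternatives changed the filter, scaling, pseudocount, floor, gene summary, test (including the methods' t-test), unit and arrays. The alternatives of the probe set as the unit, clinic as a block, T-cell labels alone and leaving out FS22 were chosen after seeing the data. Samples other than 3024l and 3024r are separate dogs. Figures were drawn with matplotlib 3.10.9.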

Additional observations from a re-analysis of the deposited data

Results flagged for a closer look

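Over the 20 combinations of a member and a group of 4 to 10 arrays that were looked at for a single array far from its group, 1 stood out, where chance gives about 1 in 20. The CTLA4 log2 signal of 5.58 in normal node 3024l was far below the 8.83 to 9.17 of the other normal nodes, with a gap of 0.906 of the whole range. The value came from the dimmer of its 2 probe sets, at 1.41 in 3024l and 7.59 in 3024r of the same dog, while the brighter one was at 9.75 and 10.12. The GAPDH 3′ to 5′ ratio of this array was 23.2, and its part in the value was not tested.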

How the results depend on the processing

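CD86 in all lymphomas and ICOS, CTLA4 and CD86 in the B-cell set kept their direction under every alternative, and no other member passed except where stated. Against the 1 member and 341 genes called in all lymphomas, leaving out 1 array gave 0 to 1 members and 3 to 469 genes. No filter gave 0 and 112, all arrays in 1 fit and the probe set as the unit gave 0 members each, and T-cell labels alone gave 0 and 99. The number of genes was 959 with a floor of 100, 744 with log2(signal + 50), 893 by the methods' t-test and 557 with linear signals averaged. Against the 3 members and 902 genes called in the B-cell set, leaving out 1 array gave 0 to 4 members, the fourth being CD28 without RB03, and 15 to 1207 genes. Without RB03 the CD28 and CTLA4 values of the remaining lymphomas were all dim, so both met the signal rule through the normal nodes alone. No filter gave 0 and 193, the methods' t-test 0 and 8, all arrays in 1 fit 0 and 238, 3024l in place of 3024r 0 and 232, and all 7 B-cell lymphomas 0 and 181. The number of genes was 1807 with a floor of 100, 1613 with log2(signal + 50), 1390 with the probe set as the unit (where CD86 did not pass) and 1424 with linear signals averaged. CD28 passed there with log2(signal + 50) and with the floor. Fewer arrays or more genes entered some of these fits, and the cause of the other changes was not tested.

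Between B-cell and T-cell lymphomas, leaving out 1 array gave 0 to 1 genes called, and leaving out RB07, RB10 and FS22 gave 1 member and 267 genes. Among members that did not pass, directions turned for CD274 in all lymphomas, at 0.0497 after quantile normalization, 0.0502 with the floor, 0.0262 with the brightest probe set, 0.0452 without RB07, RB10 and FS22, and -0.36 to 0.16 leaving out 1 array. With T-cell labels alone CD28 was at 1.19 and HAVCR2 at 0.16. Between B-cell and T-cell lymphomas, CD80 was at -0.0594 and CD86 at -0.37 with clinic as a block, TIGIT at -0.0617 with the floor, and CD86 at -0.42 to 0.53 leaving out 1 array. With linear signals averaged, the class value against normal nodes turned to 0.95 for CTLA4 in K-N and to 0.0146 for HAVCR2 in E-J, and that of PDCD1 in K-N was -0.92. No paired analysis was possible because the replicate numbers were given in accession order and 3024l and 3024r, the only numbered samples, are both normal. Dim signals limit PDCD1, TIGIT and LAG3 most.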
